A study of Mus musculus with 4 samples.

Results

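The regions described here are the binding peaks of the transcription factor Gata6 that carry the lowest name numbers on each mouse chromosome. Each peak of the deposited list is named by its chromosome, a hyphen and a whole number, and peaks numbered 1 to 50 were taken, which gave 942 peaks on 20 chromosomes. They are 7.76% of the list, whose other 11195 peaks are numbered 51 and up. The name number itself chose these peaks, so what it is related to is given below as description, without tests. No source used here says what this number counts, and no peak height accompanies it, as the score is 0 in every row. All 942 peaks were used, with no filter.

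The peaks come from ChIP-seq of primary keratinocytes, the main cell type of the epidermis, isolated from mouse dorsal skin on a C57BL6/CBA background. All libraries came from cells with the K14deltaNLef1 transgene (K14deltaNLef1N in the label of the library made with the antibody of R&D Systems) that were infected with a lentivirus for Gata6 overexpression and grown on irradiated mouse 3T3-J2 fibroblast feeders. Chromatin was precipitated with 2 different Gata6 antibodies (2 libraries) and with a Flag antibody as negative control (1 library), and input DNA made up the remaining library. The single list of overlap peaks on build mm9 holds no value per library, so neither replicate spread nor the level in the Flag and input controls could be set beside a peak, and the cell type could not be checked against markers. The labels give the age of no animal, and whether the 2 Gata6 libraries came from separate cultures or animals is not stated.

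Gata6 is a zinc-finger protein that binds short DNA sites with the core letters GATA, and in other tissues it is known for its part in endoderm, heart and lung development. The keratin 14 promoter directs a transgene to the basal layer of the epidermis and the outer root sheath of the hair follicle. Lef1 is a DNA-binding partner of beta-catenin in Wnt signalling, and its N-terminally truncated form lacks the part that binds beta-catenin. Gata6 was overexpressed on this background, so its occupancy at natural levels was not measured.

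The lowest numbers were nearly complete in the list. Of the 1000 numbers from 1 to 50 on the 20 chromosomes, 942 were listed (94.2%, 95% Wilson interval 92.6 to 95.5, which here and below covers counting error only), against 881 of 1000 from 51 to 100 (88.1%, 85.9 to 90.0). Within this set, 189 of the 200 numbers from 1 to 10 were listed (94.5%), and 194 of 200 from 11 to 20 (97.0%). The share was 93.5% both for numbers 21 to 30 and for 31 to 40, and 92.5% for numbers 41 to 50. Numbers 1 to 25 had 95.6% against 92.8% for numbers 26 to 50. The interval of that difference, -0.122 to 5.80 percentage points, included 0, so a rise toward the lowest numbers was not clear. The 58 unlisted numbers were unevenly placed. All 50 numbers were listed on 5 chromosomes (1, 5, 6, 7 and 8), whereas chromosome 9 lacked 10, chromosome 17 lacked 8 and chromosome 10 lacked 7. Number 1 was listed on 18 chromosomes and missing on chromosomes 2 and 9, and these 2 chromosomes held 7 of the 11 unlisted numbers from 1 to 10.

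A fixed range of numbers takes a different share of each chromosome. Peaks numbered 1 to 50 were 4.90% of the listed peaks on chromosome 11, the autosome with the lowest share, and 16.3% on chromosome 14, the autosome with the highest. On chromosome X they were 25.7%, 45 of 175 peaks. Comparisons that pool chromosomes therefore weigh sparse chromosomes more in the low-numbered set than in the rest, and shares among the other 11195 peaks are also given after weighting them to the chromosome make-up of the low-numbered set.

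Among the lowest numbers there was little ordering along the chromosome. Going from each peak numbered 1 to 50 to the following number on its chromosome, 539 of 922 steps went up in position (58.5%, 55.3 to 61.6), against 92.6% of 11175 steps among peaks numbered 51 and up. For numbers 1 to 10 the share was 49.1% (41.7 to 56.6), 83 of 169 steps, so steps up and down were about equally common. It was 68.5% (61.0 to 75.1) for numbers 41 to 50 and 73.8% for numbers 51 to 100. Ascending order along the chromosome was thus weakest at the lowest numbers.

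The peaks numbered 1 show where on each chromosome the numbering starts. They lay, in mm9 coordinates, at chr1:72825608-72825771, chr3:101997245-101997403, chr4:129093875-129094039, chr5:149172940-149173102, chr6:30257773-30257938, chr7:149620156-149620317, chr8:73301130-73301294, chr10:107550525-107550690 and chr11:3051406-3051569. The others lay at chr12:80011812-80011973, chr13:117932730-117932894, chr14:48254202-48254356, chr15:58092502-58092660, chr16:24364243-24364407, chr17:84425589-84425752, chr18:42926608-42926744, chr19:53358351-53358516 and chrX:53261081-53261211. Their positions ranged from near the start of the listed peaks on chromosome 11 to near the end on chromosomes 7 and 13. The 18 peaks had a median width of 164 bp (range 131 to 166 bp), and 13 of them were 160 bp or wider; the narrowest were those of chromosome X (131 bp) and chromosome 18 (137 bp). Their surroundings varied. The nearest listed peak was 0.855 kb away on chromosome 16 and 3.68 kb away on chromosome 12, but 140 kb away on chromosome 4 and 160 kb on chromosome 11, with a median of 19.9985 kb. None of the 18 windows of 1 Mb around them held more than 20 listed peaks, and the median was 13. Genes at these positions were not assigned, since no annotation or sequence of build mm9 was used here.

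Low-numbered peaks were wide. Their median width was 155 bp (interquartile range 142 to 162 bp), against 142 bp (118 to 156 bp) for peaks numbered 51 and up, and the median was higher on 20 of 20 chromosomes. The size of the difference was uneven: chromosome 17 had 157 against 139 bp and chromosome 7 had 159 against 141 bp, whereas chromosome X had 140 against 139.5 bp. Across autosomes the low-numbered medians ran from 149.5 to 159 bp and those of the other peaks from 139 to 145 bp, so the 2 ranges did not overlap. Low-numbered peaks on chromosome X lay within the range of the other peaks. Pooled over chromosomes, numbers 51 to 100 had a median width of 150 bp (137 to 159 bp). The low-numbered set thus differed less from these next numbers than from all peaks numbered 51 and up.

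The largest width in the list, 166 bp, was held by 114 of the 942 peaks (12.1%, 10.2 to 14.3), against 6.29% of the whole list and 5.81% (5.39 to 6.25) of peaks numbered 51 and up, or 5.69% of these after weighting. This share fell abruptly rather than gradually. It was 6.24% for numbers 51 to 100, and between 3.37% and 8.09% in all 19 blocks of 50 numbers from 51 to 1000. Within the low-numbered set it showed no steady trend, with 12.2% for numbers 1 to 10, 8.02% for numbers 31 to 40 and 14.1% for numbers 41 to 50.

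**Figure D1:**
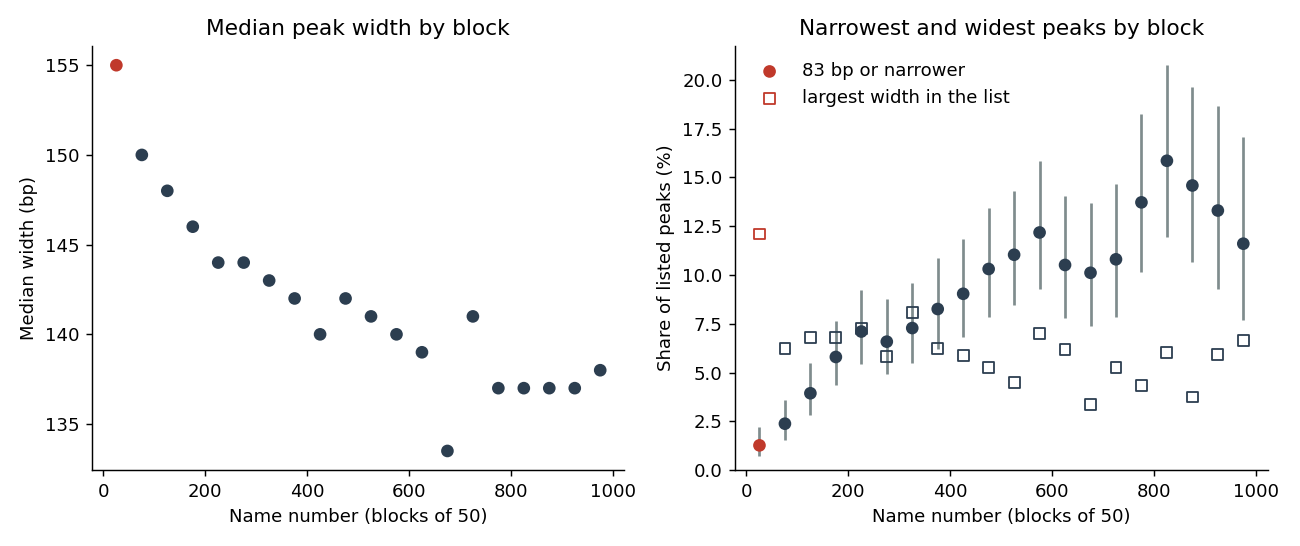
Width by blocks of 50 name numbers from 1 to 1000. Left, median width in bp; right, share of the block's listed peaks in % that were 83 bp or narrower (filled circles, bars are 95% Wilson intervals) or 166 bp wide (open squares). Numbers 1 to 50 are in red and later blocks in dark blue; the first block has a median of 155 bp and 12.1% of peaks at 166 bp, above every later block shown.

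Narrow intervals were rare among the low numbers. In all, 12 of 942 peaks were 83 bp wide or narrower (1.27%, 0.730 to 2.21), against 9.11% of the whole list and 9.80% of the others after weighting, and on all 20 chromosomes the share was lower than among peaks numbered 51 and up. Narrow intervals were also rare among numbers 51 to 100, with 2.38% (1.56 to 3.62). The 2 intervals overlap, so this rarity did not clearly set the low-numbered peaks apart from the next numbers. None of the 189 peaks numbered 1 to 10 was that narrow, and 11 of the 12 were numbered 24 to 45. The exception was peak 17 of chromosome 4, 75 bp wide at chr4:56611772-56611846. The narrowest, peak 44 of chromosome 14, spanned 10 bp at chr14:70487261-70487270, and it was followed by peak 33 of chromosome 15 with 20 bp at chr15:25374122-25374141. Narrow low-numbered peaks were found both beside and away from other peaks: the nearest listed peak was 1.83 kb away for peak 43 of chromosome 3 and 195 kb away for peak 38 of chromosome 9.

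At the upper bound of the set, peaks numbered 49 and 50 had median widths of 147 and 156.5 bp, and those numbered 51 and 52 had 151 and 161.5 bp, over 18 or 19 peaks each. Their median distances to the nearest listed peak were 5.30 and 11.6 kb inside the bound and 25.3 and 18.9 kb outside it. Widths of single numbers overlapped across the bound, with ranges of 102 to 166 bp at number 50 and 120 to 166 bp at number 51. Distances overlapped too, with ranges of 0.486 to 306 kb at number 50 and 0.59 to 194 kb at number 51.

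Low-numbered peaks had neighbours somewhat closer than other peaks. Distances were measured between midpoints to the nearest peak of the whole list, whatever its number, so that both sets were measured against the same peaks. The median was 14.1 kb (interquartile range 4.59 to 41.0 kb) for numbers 1 to 50, 15.5 kb for numbers 51 to 100 and 19.1 kb (5.68 to 58.6 kb) for numbers 51 and up. It was lower in the low-numbered set on 16 of 20 chromosomes, among them chromosome 3 (7.05 against 18.6 kb), chromosome 17 (7.44 against 18.6 kb) and chromosome 16 (9.11 against 20.4 kb). On chromosomes 6, 9, 13 and X it was higher. The closeness did not come from the very lowest numbers. The median distance was 16.3 kb for numbers 1 to 10 and 12.05 kb for numbers 41 to 50, and another listed peak lay within 5 kb of 22.2% (16.9 to 28.7) of the former and 33.0% (26.6 to 40.03) of the latter.

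The difference from the whole list was clearer at intermediate distances than at the closest ones. Another listed peak lay within 1 kb of 72 low-numbered peaks (7.64%, 6.11 to 9.52), against 6.66% of the whole list. One lay within 5 kb of 249 (26.4%, 23.7 to 29.3), against 23.2% of the whole list, 22.9% (22.1 to 23.7) of peaks numbered 51 and up and 22.2% of these after weighting by chromosome. With numbers 1 to 25 in place of 1 to 50 the lead within 5 kb was 2.02 percentage points, with an interval from -1.74 to 6.17 that includes 0. Numbers 51 to 100 had 26.2%, so closeness at 5 kb did not set the 50 lowest numbers apart from the next 50. Within 20 kb the share was 57.4% (54.2 to 60.6), against 51.4% of the whole list and 49.4% of the others after weighting, and the low-numbered set was higher than the rest on 18 of 20 chromosomes. Conversely, 208 low-numbered peaks had no other peak within 50 kb (22.1%, 19.5 to 24.8), against 27.9% of the whole list and 30.2% of the others after weighting, and the share was lower than in the rest on 17 chromosomes. For numbers 51 to 100 the shares were 56.2% (52.9 to 59.4) within 20 kb and 24.97% (22.2 to 27.9) with no peak within 50 kb. Both intervals overlap those of the low-numbered set, so these distances did not clearly set it apart from the next 50 numbers either.

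**Figure D2:**
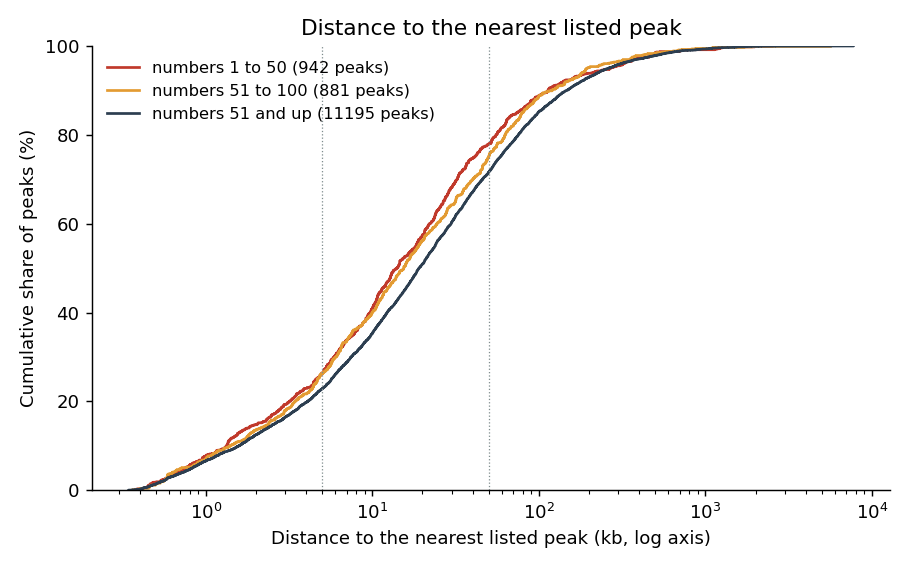
Cumulative share of peaks in % against the distance to the nearest listed peak in kb (log axis), for numbers 1 to 50, 51 to 100 and 51 and up; dotted lines mark 5 and 50 kb. The curve of numbers 1 to 50 lies close to that of numbers 51 to 100 at 5 kb (26.4% and 26.2%), and both lie above that of numbers 51 and up (22.9%).

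Among the 249 peaks with a neighbour within 5 kb, the nearest peak was another low-numbered one in 49 cases (19.7%), beside the 7.76% that low-numbered peaks make up of the list, and was numbered 51 and up in 200. A neighbour is always on the same chromosome, and there the share of low-numbered peaks ran from 4.90% on chromosome 11 to 25.7% on chromosome X. The pooled 7.76% is therefore a rough yardstick. The numbers of those 200 neighbours ran from 51 to 2052, with a median of 220.5.

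Chromosome X went the other way. Its 45 low-numbered peaks had a median distance of 115 kb to the nearest listed peak, against 71.2 kb for its other peaks, and 19 of them (42.2%) had no peak within 200 kb, against 31.5% of its other peaks, so isolation was common on the whole chromosome. In the whole set 58 peaks (6.16%, 4.79 to 7.88) were isolated to that degree, against 6.99% of the whole list and 8.38% of the others after weighting, and chromosome X held 19 of the 58. On autosomes the share ranged from 0% on chromosomes 17 and 19 to 14.3% on chromosome 14. Copy number, mappable sequence and read depth of chromosome X were not measured, and their part in these values was not tested.

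**Figure D3:**
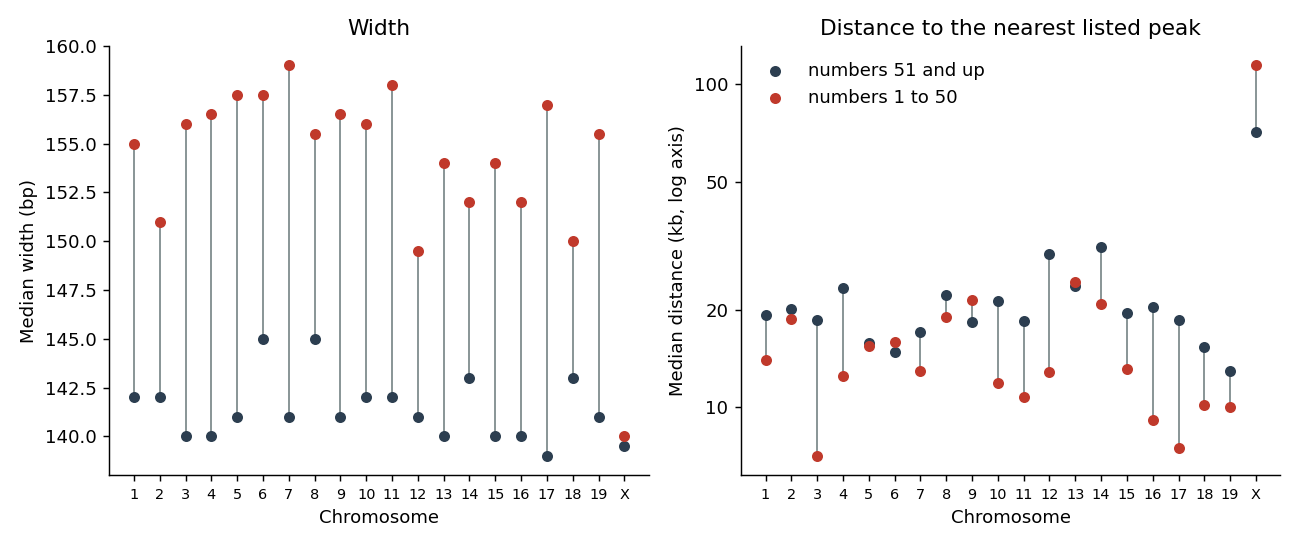
Medians by chromosome for numbers 1 to 50 (red) and 51 and up (dark blue): width in bp (left, axis not from 0) and distance to the nearest listed peak in kb (right, log axis). The red points lie higher in width on all chromosomes, by only 140 against 139.5 bp on chromosome X, and lower in distance on 16 of 20.

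Pairs of low-numbered peaks close to each other were few, and they are shown as the sites where the numbering places 2 of the lowest numbers side by side. There were 27 such pairs within 5 kb on 15 chromosomes, holding 54 of the 942 peaks (5.73%, 4.42 to 7.40), and no run of 3 or more. Numbers 51 to 100 had 23 such peaks of 881 (2.61%, 1.75 to 3.89). This contrast depended on the settings: it was 4.85% against 3.92% when the lowest 8% of each chromosome's peaks were taken and set against the next 8%, 1.06% against 1.14% for pairs within 1 kb, and 11.04% against 10.33% for pairs within 20 kb. With numbers 1 to 25 against 26 to 50 it was 3.77% against 2.16%, and the interval of the difference, -0.625 to 3.94 percentage points, included 0. In later blocks the number of listed peaks falls, which lowers the share by itself.

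The 5 closest pairs were less than 1 kb apart between midpoints. They were peaks 49 and 33 of chromosome X (0.374 kb apart, chrX:48596656-48597168), peaks 40 and 16 of chromosome 9 (0.445 kb, chr9:43666008-43666616), peaks 15 and 47 of chromosome 17 (0.465 kb, chr17:28406680-28407309), peaks 22 and 5 of chromosome 15 (0.634 kb, chr15:101544266-101545055) and peaks 10 and 3 of chromosome 10 (0.954 kb, chr10:116587517-116588625). In 3 of the 27 pairs both numbers were 10 or lower: the last of those just named, peaks 7 and 5 of chromosome 17 (2.50 kb, chr17:66672451-66675111) and peaks 2 and 8 of chromosome 4 (3.93 kb, chr4:40746004-40750082). Peak 1 of chromosome 12 was 3.68 kb from peak 21. Chromosome 17 held 5 of the pairs, and chromosomes 15 and 16 held 3 each. In 25 of the 27 pairs no other listed peak lay between the members.

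**Figure D4:**
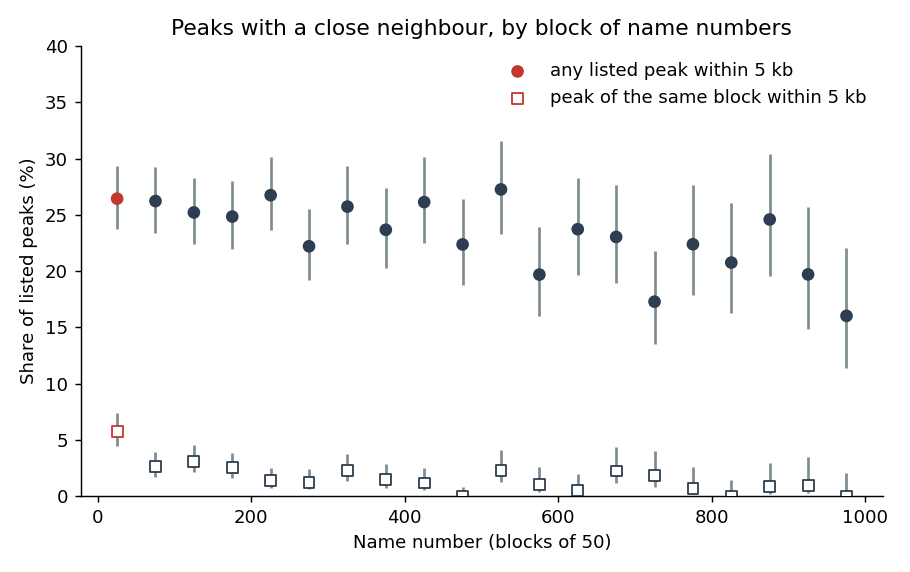
Share of listed peaks in % with a neighbour within 5 kb, by blocks of 50 name numbers from 1 to 1000; bars are 95% Wilson intervals. Filled circles count any listed peak as neighbour, open squares only peaks of the same block; red is numbers 1 to 50, with 26.4% and 5.73%, and dark blue the later blocks, whose same-block share is at most 3.11%.

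On the scale of 1 Mb, some low-numbered peaks gathered in the same windows. The 942 peaks lay in 642 windows of 1 Mb, of which 25 held 4 or more of them, 118 peaks in all. These 25 windows held 8 to 28 listed peaks. The median over all listed peaks was 10 in their 1-Mb window, and the fullest window held 39. Picking windows by 4 or more low-numbered peaks favours full windows by construction. For numbers 51 to 100 there were 12 windows with 4 or more peaks of that block, or 50 peaks, and no window reached 6, whereas 8 windows held 6 or 7 low-numbered peaks. With the lowest 8% of each chromosome the counts were 24 windows against 18 for the next 8%, and with windows shifted by 0.5 Mb they were 23 against 15, so the contrast was smaller under both settings.

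The window with the most low-numbered peaks was on chromosome 10 from 107000001 to 108000000. It held 7 among its 16 listed peaks, numbers 1, 4, 7, 9, 20, 24 and 46, all between 107069718 and 107562509. The 7 windows with 6 each were, in mm9 positions, chromosome 4 from 40000001 to 41000000 (16 listed peaks), chromosome 10 from 116000001 to 117000000 (12), chromosome 14 from 70000001 to 71000000 (13), chromosome 15 from 85000001 to 86000000 (28) and from 101000001 to 102000000 (20), chromosome 17 from 84000001 to 85000000 (14) and chromosome 19 from 32000001 to 33000000 (17). The window on chromosome 4 held 5 of the numbers 1 to 10 of its chromosome, within 40719991 to 40973746. On chromosome 10 the windows from 107000001 and from 116000001 held 4 and 3 of them. In contrast, the windows on chromosome 14 and on chromosome 15 from 85000001 held none. Of these 8 windows 2, both on chromosome 15, had 20 or more listed peaks. In the whole list 53 windows reached that count, beside 642 windows that held a low-numbered peak.

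Whether windows rich in peaks held more than their part of the low numbers depended on the minimum used. In the 53 windows with 20 or more listed peaks lay 85 of the 942 (9.02%, 7.36 to 11.02), against 10.3% of the whole list, 10.4% (9.88 to 11.01) of peaks numbered 51 and up and 9.36% of these after weighting by chromosome, a difference smaller than the counting error. Of these windows 11 held no low-numbered peak. The fullest window of the list, chromosome 7 from 119000001 to 120000000, held 2 among 39 peaks, the lower of them numbered 43, and the windows on chromosome 1 from 137000001 to 138000000 (31 peaks) and on chromosome 5 from 136000001 to 137000000 (29 peaks) held none. The window on chromosome 8 from 129000001 to 130000000 (29 peaks) held 2, with 4 as its lowest number. At a minimum of 15 peaks per window the order was the other way, 27.9% of low-numbered peaks against 24.8% of the others. The difference was 3.11 percentage points, with an interval from 0.227 to 6.17. In 0.5-Mb windows with 10 or more peaks the shares were 26.96% against 23.1%, a difference of 3.83 (0.981 to 6.85). Both intervals exclude 0 but count each peak as independent. All peaks of a window pass or fail the minimum together, so the intervals are too narrow to decide. In 2-Mb windows with 40 or more peaks the difference was 0.223 (-0.699 to 1.51). At a minimum of 25 peaks the difference was -0.510 (-1.47 to 0.801), an interval that includes 0.

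Along the length of the chromosomes the low-numbered peaks were placed much as the others. When the stretch covered by each chromosome's listed peaks was cut into 5 equal parts, the last part held 255 of them (27.1%, 24.33 to 29.996), against 26.1% of peaks numbered 51 and up, and the first part held 157 (16.7%, 14.4 to 19.2), against 16.03%.

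Chromosome 10 was an exception in placement. Of its 43 low-numbered peaks, 19 lay between 100000001 and 120000000 (44.2%, 30.4 to 58.9), a segment with 82 of its 647 other peaks (12.7%, 10.3 to 15.5), a ratio of 3.49. In the 20-Mb segment with most low-numbered peaks of each of the other 19 chromosomes this ratio lay between 0.704 and 1.88, reached on chromosome 4. There the shares were 34.8% (22.7 to 49.2) and 18.5% (15.5 to 22.0), and these intervals did not overlap either. The share was highest for the 9 listed numbers from 1 to 10, with 7 of them (77.8%, 45.3 to 93.7). It was 5 of 13 from 11 to 25 (38.5%, 17.7 to 64.5) and 7 of 21 from 26 to 50 (33.3%, 17.2 to 54.6), with intervals that overlap the first. It was 7 of 37 from 51 to 100 (18.9%, 9.48 to 34.2) and 15 of the 72 above 100 and up to 200 (20.8%, 13.1 to 31.6). Above 200 it was 60 of 538 (11.2%, 8.76 to 14.1). The windows from 107000001 and from 116000001 described above lie in this segment. They held 7 and 6 of its 19 low-numbered peaks, among them all 7 numbered 1 to 10, so the 2 results are not separate. In width these 19 peaks were like the other 24 of the chromosome, with medians of 159 and 155.5 bp, and in both groups 6 had a neighbour within 5 kb. Copy number and read depth there were not measured, and their part in the placement was not tested.

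**Figure D5:**
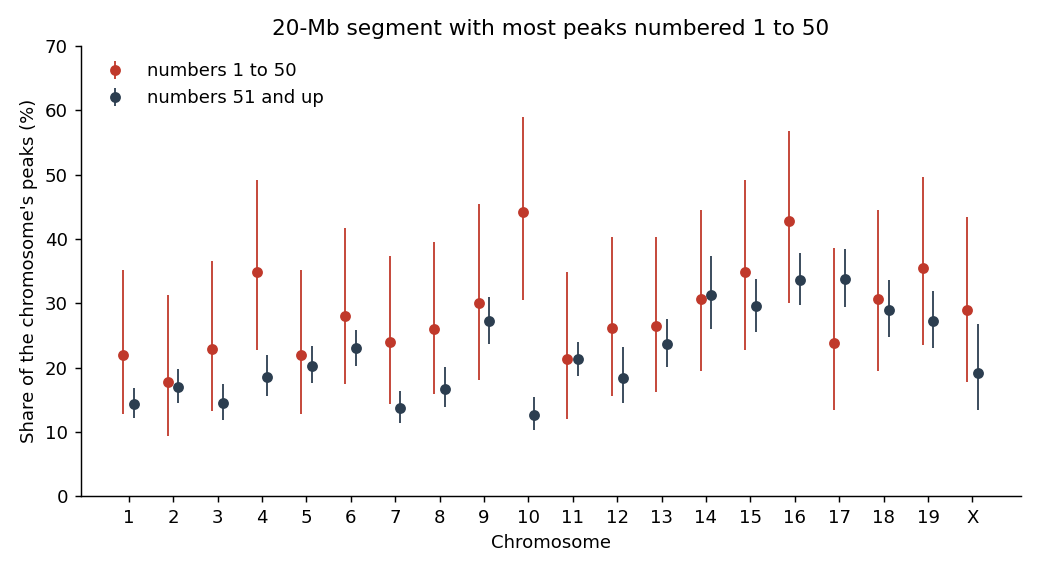
Share of each chromosome's peaks in % that lie in the 20-Mb segment with most peaks numbered 1 to 50, for numbers 1 to 50 (red) and 51 and up (dark blue); bars are 95% Wilson intervals. The segment was picked by its low-numbered peaks, which favours the red points. On chromosome 10 the shares are 44.2% and 12.7%, and on chromosome 4 they are 34.8% and 18.5%. On both chromosomes the intervals do not overlap.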

How the data were processed

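ChIP-seq libraries of Gata6 (2), Flag (1) and input (1) were represented by 1 deposited list of overlap peaks. BWA, HOMER and build mm9 stand in the submitters' processing notes without versions. No source used here says which lists were joined, what overlap was required, how peaks were called or whether the controls were used. The score deposited by the authors is 0 in every row, so it was not used, and the other deposited values are peak positions in bp. Read depth is unknown.

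Starts were read as 0-based and are printed 1-based. Width is end minus start, distances are between midpoints, and windows start at position 1. Python 3.11.15, NumPy 2.4.6, pandas 2.3.3, SciPy 1.17.1 and matplotlib 3.10.9 were used. The functions passed 6 of 6 checks on simulated data with known answers. Peaks are not replicates and the name number chose the set, so no test was run; shares carry 95% Wilson intervals. The members, lists and settings were chosen with earlier results of these data known. Regions named were the peaks numbered 1, pairs within 5 kb with both numbers 10 or lower, the 5 closest pairs, the windows with most low-numbered peaks and the fullest windows of the list; the low-numbered pairs, the fullest windows, the narrow peaks and the pair of peak 1 of chromosome 12 were picked after values were seen, and the rest by the planned rule. Promoter, gene and motif analyses were not run, for want of an mm9 genome; the GRCm38 gene, promoter and miRNA tables were not used.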

Additional observations from a re-analysis of the deposited data

How the results depend on the processing

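No paired analysis was possible because the list holds no values per replicate, and no library could be left out. Of 62 alternative values for 10 results, 49 kept their direction and stayed within the counting interval, the spread over chromosomes or 1.5 times the count, 8 moved and 5 reversed. The cause was not tested beyond what each setting changes by construction. Differences are in percentage points, low-numbered minus compared peaks. The lead in listed numbers was 6.1, but 2.8 with numbers 1 to 25 and 9.65 with numbers 1 to 100. The difference in ascending steps was -34.1, but -37.5 with numbers 1 to 25 and -28.5 with numbers 1 to 100. The difference in narrow peaks was -8.50, but -12.5 at 100 bp or less and -3.43 at 50 bp or less. The lead in close pairs of the same block was 3.12, but 1.61 with numbers 1 to 25, 0.928 with the lowest 8% of each chromosome, 0.711 within 20 kb and reversed to -0.0735 within 1 kb. The difference in windows with 20 or more peaks was -1.41, and reversed to 0.208 with the lowest 8%, 3.11 at 15 or more peaks, 0.223 in 2-Mb windows with 40 or more and 3.83 in 0.5-Mb windows with 10 or more. Settings for windows with 4 or more low-numbered peaks and for the segment of chromosome 10 were added after the data were seen, and for the low-numbered peaks themselves none of the 8 values moved. The contrast of windows did: 25 against 12 became 24 against 18 with the lowest 8% and 23 against 15 with shifted windows. Windows counted over peaks numbered 51 and up only favour those peaks by construction. That value is counted among the 49, but nothing is read from it. The median distance to the nearest listed peak differed by -5.01 kb, with a spread over chromosomes of -17.2 to 7.20 kb. This spread includes 0 and is wide, so that the alternatives for this distance stayed within it says little. With autosomes only the difference was -5.83 kb, with a spread of -11.2 to -0.456 kb. Motif and annotation alternatives were not run. Read depth limits which sites are listed at all and was not at hand.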
